A study of Mus musculus with 4 samples.

Results

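The genes of the eukaryotic translation initiation factors (eIFs) were followed through the first day of muscle differentiation in C2C12 cells. C2C12 is a mouse myoblast line that differentiates when serum is lowered. Members were the transcript clusters of the array that carried a single gene symbol beginning with Eif and a digit. There were 35 such genes, each with 1 cluster, among 14806 genes with a cluster of their own and 16658 clusters in all. A further 7 clusters named an Eif gene together with other genes and were left out, so that Eif5a, Eif6, Eif4a2, Eif4ebp1, Eif4ebp3, Eif2ak2 and Eif3j1 have no value here. Eif4g1, Eif4a1 and Eif2s1 were not analysed here either. Of the genes listed for the roles below, 23 had no cluster of their own.

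Total RNA was hybridised to 4 Affymetrix mouse exon arrays, 2 per condition, which the design text calls biological replicates. Growth cells were collected while still 60 to 70% confluent, in DMEM that held 10% fetal bovine serum. Differentiation cells were moved at 100% confluency to DMEM with 2% horse serum and collected 24 h later. No genetic change or other agent is named for either condition. Serum, cell density and time in culture change together with differentiation, so their effects cannot be told apart. Each value is an average over a culture, in which fewer cells expressing a gene and less RNA per cell cannot be told apart either.

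Initiation factors bring the initiator tRNA, the small ribosomal subunit and the capped mRNA together and set the ribosome on the start codon. eIF2 carries the initiator tRNA and is recharged by eIF2B, eIF3 is the scaffold on the small subunit, and the eIF4 proteins recognise the cap and unwind the leader. The pathway is controlled mainly through phosphorylation, by kinases that act on eIF2 and by mTOR acting on the eIF4E-binding proteins, neither of which an mRNA array measures. In muscle it is known as the step at which insulin-like growth factor signalling and amino acids raise protein synthesis.

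The myoblast markers Myod1, Myf5, Des and Cdh15 had intensities of 876 to 3377 on every array, and their summed intensity was 5391 to 5417 in growth and 8246 to 8415 in differentiation. The markers of differentiating myocytes, Myog, Ckm and Mymk, summed to 1941 to 1971 in growth and 4463 to 5442 in differentiation. Ptprc, Pecam1, Epcam and Adipoq, which mark leukocytes, endothelium, epithelium and adipocytes, had intensities of 4.87 to 119 and a summed intensity of 159 to 264 in growth and 157 to 159 in differentiation. Median intensities of the arrays were 168 to 177. No 2 arrays held the same values.

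Most initiation factor genes had small changes between growth and differentiation. Of 35 measured, 2 fell, 0 rose and the others did not pass the test (limma on log2(intensity + 16), Benjamini-Hochberg adjusted over all 16658 clusters, threshold 0.05). The 2 that fell were Eif1ad, a member by its symbol rather than an established initiation factor, and Eif5a2. They make up 5.71% of the members, while 16.2% of all clusters passed, 7.52% as lower and 8.64% as higher. The members tended to be bright, since 5 of 35 had a mean log2(intensity + 16) below the median over all clusters. Shares of members and of all clusters given here are not matched for intensity. At an unadjusted p under 0.05, 8 members were lower and 3 higher, against 15.2% of all clusters lower and 17.8% higher. The 3 higher were Eif3f and, with dim clusters, Eif4b and Eif2s3y. The 95% interval of the change lay within 2-fold in either direction for 28 of 35 members (80%), against 69.9% of all clusters. The 7 other members, whose intervals reached past 2-fold, were Eif1ad, Eif5a2, Eif2s2, Eif2s3y, Eif3a, Eif3f and Eif4b.

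**Figure D1:**
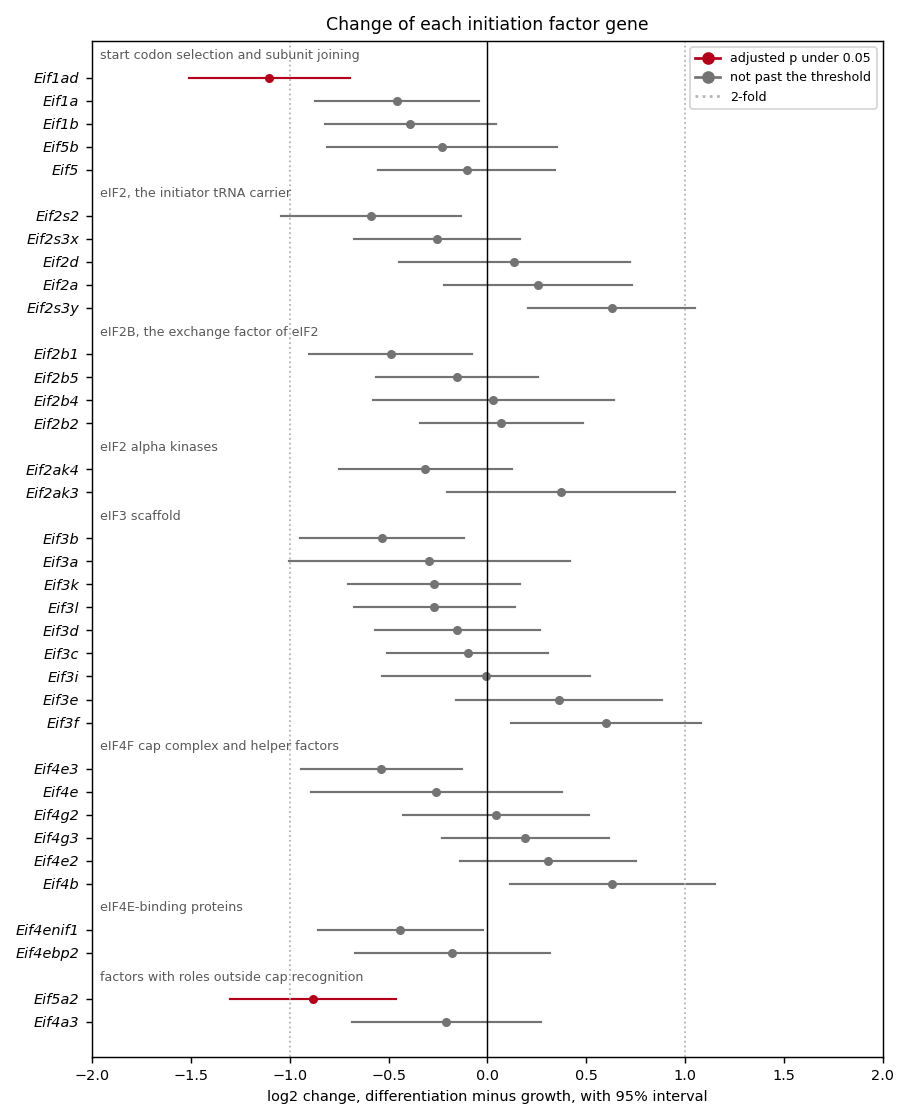
The log2 change of each of the 35 genes, differentiation minus growth, is plotted as a point with its 95% interval from limma, with genes grouped by role and dotted lines at 2-fold. Eif1ad at -1.11 and Eif5a2 at -0.88 are the 2 genes past the threshold, and Eif4b, Eif2s3y and Eif3f, at 0.63, 0.63 and 0.60, lie on the higher side without passing it. The clusters of Eif4b and Eif2s3y were dim, and the Eif2s3y signal could not be told from background.

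The members lay on the lower side more often than on the higher. Both differentiation arrays were below both growth arrays for 16 of the 35 genes (45.7%, against 30.1% of all clusters) and above them for 5 (14.3%, against 30.8%). The 5 included Eif4b and Eif2s3y, whose clusters were dim. The median log2 change was -0.18, while that of all clusters was -0.01. It was -0.06 without growth replicate 2 and -0.26 without growth replicate 1, so the size of this median rested on which growth array was used. Growth replicate 2 exceeded growth replicate 1 for 29 of 35 members (82.9%) and for 59.8% of all clusters, and the part of this difference between growth arrays in the median was not tested. Each change given here is the log2(intensity + 16) mean of differentiation less that of growth, a scale on which dim genes appear to change less than they did. It carries the limma standard error (SE) or 95% interval (CI), neither adjusted for the number of genes.

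**Figure D2:**
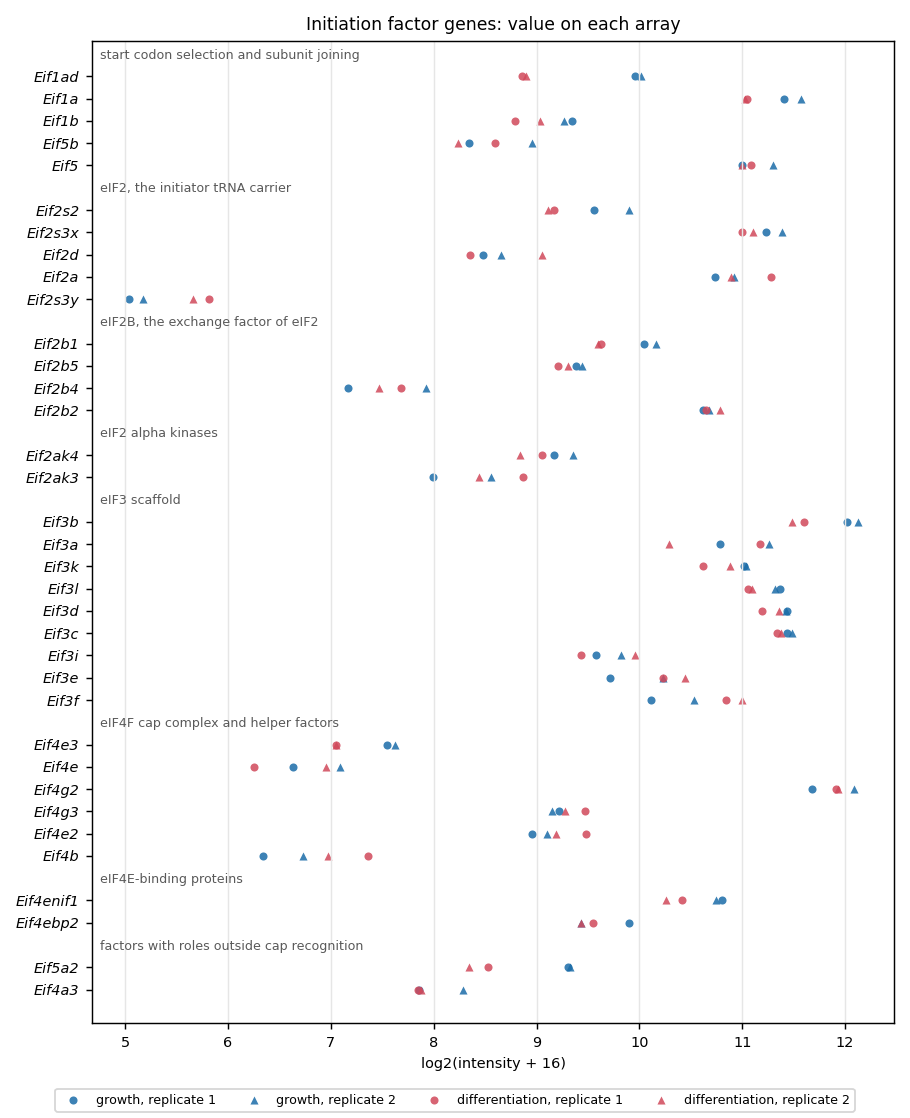
Each of the 35 genes has 1 point per array on a log2(intensity + 16) axis, blue for growth and red for differentiation, with circles for replicate 1 and triangles for replicate 2. The red and blue points of Eif1ad and Eif5a2 lie well apart, while those of Eif3a, Eif3i and Eif4g2 are interleaved; positions of different genes are not comparable because each has its own probes.

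Factors for start codon selection and subunit joining were measured by 5 of 7 listed genes. Of the 5, 1 fell (Eif1ad) and 0 rose, with a median change of -0.39 and all 5 changes below 0. Eif1ad, on chromosome 19, encodes a protein named for its eIF1A-like domain rather than an established initiation factor. It read 977 and 1019 in growth and 449 and 461 in differentiation, with a wide gap between the groups and little spread within them. It fell from 998 ± 29.5 to 455 ± 8.65 (SD, n = 2), a log2 change of -1.11 ± 0.18 SE (CI -1.51 to -0.70; limma adjusted p = 0.00555). The change was -1.13 to -1.08 with any 1 array left out, and the adjusted p was then 0.0588 without differentiation replicate 1, 0.056 without differentiation replicate 2 and 0.0245 and 0.0249 without the growth arrays.

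The classical factors of this step moved less and did not pass. Eif1a, on chromosome 18, encodes an eIF1A protein, which helps the small subunit scan. It read 2708 and 3032 in growth and 2102 and 2064 in differentiation, so the groups did not overlap. The change of -0.46 ± 0.18 SE did not pass (limma adjusted p = 0.122). Eif1b, a close relative of the start codon fidelity factor gene Eif1, read 634 and 598 in growth and 427 and 508 in differentiation, again without overlap (-0.39 ± 0.19 SE; adjusted p = 0.189). Eif5, which encodes the GTPase activator of eIF2, and Eif5b, which encodes the subunit-joining GTPase, had changes of -0.11 (CI -0.55 to 0.34) and -0.23 (CI -0.81 to 0.35) with overlapping arrays.

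Of 5 genes for eIF2 and for proteins that bring initiator tRNA by other routes, 0 passed the test. Eif2s2, the beta subunit gene, read 738 and 941 in growth and 559 and 539 in differentiation (-0.59 ± 0.20 SE; limma adjusted p = 0.0788). Both differentiation arrays were below both growth arrays, and the growth arrays differed from each other by about as much as growth replicate 1 differed from differentiation. The gamma subunit is encoded by a pair of genes on the sex chromosomes, each with a cluster of its own. Eif2s3x, on chromosome X, was bright, at 2382 and 2665 in growth and 2033 and 2190 in differentiation (-0.25 ± 0.18 SE; adjusted p = 0.361).

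Eif2s3y, on chromosome Y, was the dimmest member on every array. Its intensity was 16.7 and 20.2 in growth and 40.1 and 34.4 in differentiation, higher on both differentiation arrays, and its log2 change of 0.63 ± 0.18 SE lay just outside the threshold (limma adjusted p = 0.054). It passed under quantile normalization (adjusted p = 0.0418) and median centring (adjusted p = 0.047), and when clusters were first averaged per gene (adjusted p = 0.0496). With an offset of 1 in place of 16 the change was 0.98 and did not pass (adjusted p = 0.064). The table holds no detection call, so a signal this low cannot be told from background. Eif2a and Eif2d encode tRNA-binding factors that act outside the eIF2 cycle, and had changes of 0.26 (CI -0.22 to 0.73) and 0.14 (CI -0.45 to 0.72).

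For eIF2B, the exchange factor that recharges eIF2, 4 subunit genes were measured and 0 passed. Eif2b1, the alpha subunit gene, read 1038 and 1129.7 in growth and 776 and 759 in differentiation (-0.49 ± 0.18 SE; limma adjusted p = 0.0996). Its groups were apart by more than the arrays of either group differed. Eif2b5, which encodes the catalytic epsilon subunit, changed by -0.16 (CI -0.57 to 0.26), Eif2b2, the beta subunit gene, by 0.07 (CI -0.34 to 0.48) and Eif2b4, the delta subunit gene, by 0.03 (CI -0.58 to 0.64). Genes of 2 of the kinases that phosphorylate eIF2 were measured and 0 passed. Eif2ak3, the gene of the endoplasmic reticulum stress kinase PERK, had 240 and 362 in growth and 451 and 331 in differentiation (0.37 ± 0.25 SE; adjusted p = 0.331). One differentiation array lay inside the growth range, and the change was 0.09 without growth replicate 1 and 0.654 without growth replicate 2. Eif2ak4, the gene of the amino acid sensing kinase GCN2, had a change of -0.31 ± 0.19 SE with both differentiation arrays below both growth arrays (adjusted p = 0.283).

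The eIF3 scaffold was the largest group. Of its 9 measured subunit genes (15 listed), 0 passed in either direction. Its median change was -0.15, and its changes ran from -0.53 for Eif3b to 0.60 for Eif3f. Eif3b, a core subunit gene, read 4138 and 4452 in growth and 3081 and 2850 in differentiation (-0.53 ± 0.18 SE; limma adjusted p = 0.0821). Both differentiation arrays were lower than either growth array. Eif3f, known in muscle as the subunit that the ubiquitin ligase atrogin-1 targets during atrophy, read 1093 and 1461 in growth and 1821 and 2032 in differentiation (0.60 ± 0.21 SE; adjusted p = 0.0873). It was the one eIF3 gene higher on both differentiation arrays, and the difference between the changes of Eif3f and Eif3b was not tested.

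The calls of both subunit genes depended on the settings of the fit. With a variance prior that follows intensity, Eif3b passed as lower (limma adjusted p = 0.00037) and Eif3f as higher (adjusted p = 0.00155). Both also passed without the 25% of clusters that were dimmest (adjusted p = 0.0447 and 0.0475). Of all clusters, 26.2% and 28.4% passed in these 2 settings, against 16.2% in the reported analysis. Neither gene passed in the other settings tried, such as an offset of 1 (adjusted p = 0.135 and 0.166). Among the other subunit genes, Eif3k (-0.27), Eif3l (-0.27), Eif3d (-0.15) and Eif3c (-0.10) had both differentiation arrays below both growth arrays and did not pass. Eif3e changed by 0.36 (CI -0.16 to 0.88) and Eif3i by -0.01 (CI -0.54 to 0.52), with overlapping arrays. Eif3a, which encodes the largest subunit, had the widest error of the members. It read 1752 and 2430.4 in growth and 2287 and 1234 in differentiation, and its change went from -0.74 to 0.15 depending on the array left out.

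Of 6 genes of the cap-binding eIF4F complex and its helper factors (11 listed), 0 passed. Eif4e, the cap-binding protein gene, was dim, at 83.1 and 120 in growth and 60.3 and 108 in differentiation, with overlapping groups (-0.26, CI -0.89 to 0.37; limma adjusted p = 0.54). Its relatives had values on opposite sides of 0. Eif4e3, for a divergent cap-binding protein, read 171 and 182 in growth and 117 and 116 in differentiation (-0.54 ± 0.18 SE; adjusted p = 0.0762). Eif4e2, the gene of the translational repressor 4EHP, read 480.3 and 535 in growth and 698 and 569 in differentiation (0.31 ± 0.19 SE; adjusted p = 0.302). Neither gene's groups overlapped, Eif4e3 being lower and Eif4e2 higher in differentiation.

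Eif4b, whose protein stimulates the eIF4A helicase, had a dim cluster, at 65.1 and 90.2 in growth and 149 and 109 in differentiation (0.63 ± 0.22 SE; limma adjusted p = 0.0937). Both differentiation arrays were above both growth arrays (CI 0.11 to 1.15). The gene is on chromosome 15, but its cluster is numbered nearest to that of Eif2s3x on chromosome X and away from the other chromosome 15 members. Whether the cluster reads Eif4b itself was not tested. The scaffold genes differed little. Eif4g3 changed by 0.19 (CI -0.23 to 0.61), and Eif4g2, whose protein p97 lacks the eIF4E-binding region, by 0.04 (CI -0.43 to 0.51) at intensities of 3264 to 4340.1.

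The genes of proteins that bind eIF4E and hold it from the cap complex were represented by Eif4ebp2 and Eif4enif1, of which 0 passed. Eif4enif1, which encodes the transporter that carries eIF4E into the nucleus, read 1775 and 1703 in growth and 1349.8 and 1207 in differentiation (-0.44 ± 0.18 SE; limma adjusted p = 0.135). Its groups were apart. Eif4ebp2, for an mTOR-controlled binding protein, read 939 and 675 in growth and 733 and 673 in differentiation (-0.18, CI -0.67 to 0.32), and growth replicate 1 alone lay above both differentiation arrays.

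The remaining members act outside cap recognition. Eif5a2, on chromosome 3, encodes an isoform of eIF5A, the hypusine-bearing factor that helps ribosomes past difficult peptide bonds. Its intensity was 617 and 626 in growth and 352 and 309 in differentiation, so that both differentiation arrays were well below growth. It fell from 621 ± 6.74 to 331 ± 30.7 (SD, n = 2), a log2 change of -0.88 ± 0.18 SE (CI -1.30 to -0.46; limma adjusted p = 0.0159). With 1 array left out the change was -0.97 to -0.79. No such fit kept the call, but each of them leaves 1 array in a group and passed fewer of all clusters than the reported analysis. The call was also lost with an offset of 1 (limma adjusted p = 0.0586), under which 6.9% of all clusters passed, against 16.2% in the reported analysis. Eif4a3, the gene of the exon junction complex helicase, changed by -0.21 (CI -0.69 to 0.27).

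**Figure D3:**
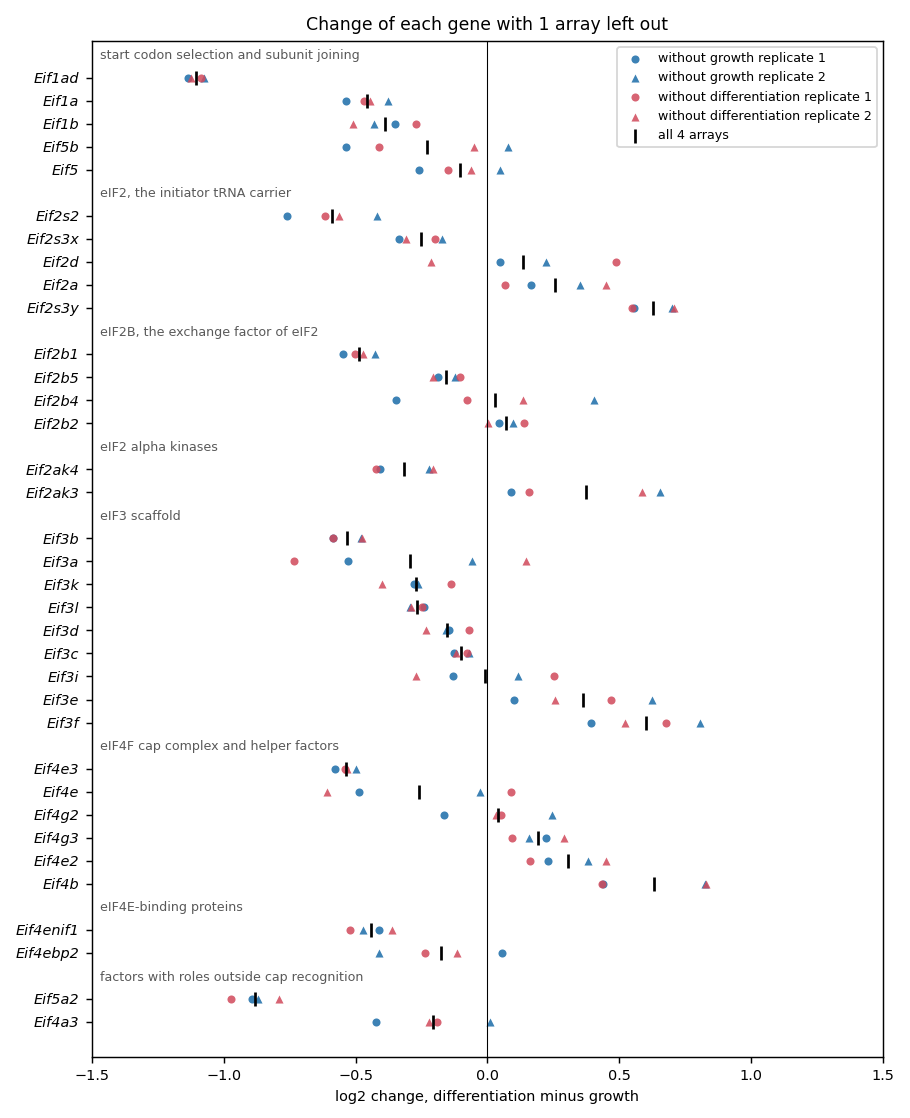
The log2 change of each gene is plotted with all 4 arrays (black bar) and with each array left out in turn (blue for a growth array, red for a differentiation array). The points of Eif1ad stay between -1.13 and -1.08 and those of Eif5a2 between -0.97 and -0.79, while those of Eif3a run from -0.74 to 0.15 and those of Eif2b4 from -0.35 to 0.41.

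Promoters of the members were searched for CACGTG, the E-box that Myc and Max bind, because several initiation factor genes are known Myc targets. The sequences are RefSeq's, build GRCm38.p6, from 250 bases before to 50 after each annotated start, and the motif reads the same on both strands. Of 30 members with a promoter in the table, 6 (20%) held the motif, as did 8.09% of all 27025 genes with a promoter there. The 27025 genes were not limited to those on the array or matched to the members for intensity or number of starts. Whether the 2 shares differ was not tested. The 6 members were Eif1b, Eif3a, Eif3f, Eif3k, Eif4e and Eif5a2. Eif5a2, which fell, holds it at 2 places, whose first bases lie 142 and 117 bases before the start, and Eif1ad had no match in its window. No window is shown for Eif3a, because the 30 bases around its match did not lie wholly before the start. The windows before the start are shown 5′ to 3′ on the gene's strand with the motif in capitals.
Eif5a2, chr3:28781123-28781152, plus strand: actaatccgcagCACGTGgggttgccaggg
Eif5a2, chr3:28781148-28781177, plus strand: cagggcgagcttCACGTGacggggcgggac
Eif4e, chr3:138527028-138527057, plus strand: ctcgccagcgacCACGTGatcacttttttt
Eif4e, chr3:138527192-138527221, plus strand: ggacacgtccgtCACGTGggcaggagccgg
Eif1b, chr9:120492570-120492599, plus strand: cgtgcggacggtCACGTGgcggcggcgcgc
Eif3k, chr7:28981915-28981944, minus strand: ctggaaggaaatCACGTGgtagacaaaaaa
Eif3f, chr7:108934335-108934364, plus strand: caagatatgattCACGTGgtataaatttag

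The changes of the 6 genes with the motif did not share a direction. Eif5a2 fell, the changes of Eif1b, Eif3k, Eif3a and Eif4e were -0.39, -0.27, -0.29 and -0.26 and did not pass, and that of Eif3f was 0.60 and did not pass. A match describes the letters of these windows and does not show binding.

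Genes that act beside the initiation factors, during elongation or in mTOR signalling were taken from 3 further lists. Of 32 partner genes not named Eif (37 listed), 3 rose and 2 fell (15.6% called, against 16.2% of all clusters), with a median change of -0.01. Pdcd4, which encodes an inhibitor of the eIF4A helicase, read 406 and 481 in growth and 1099.7 and 939.7 in differentiation (1.17 ± 0.19 SE; limma adjusted p = 0.00645). Ppp1r15a, for the phosphatase subunit GADD34 that restores eIF2, rose by 0.79 ± 0.22 SE (adjusted p = 0.0448), and Mknk2, for a kinase of eIF4E, rose by 0.67 ± 0.18 SE (adjusted p = 0.0404). Bzw2, which encodes an eIF5-mimic protein, fell (-0.88 ± 0.18 SE; adjusted p = 0.017), as did Abce1, the ribosome recycling factor gene (-0.75 ± 0.19 SE; adjusted p = 0.0325). With an offset of 1, under which 6.9% of all clusters passed, Pdcd4 alone of these 5 did. The poly(A)-binding protein gene Pabpc1 changed by -0.33 (CI -0.80 to 0.13).

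Of 16 genes of elongation and termination (20 listed), 4 fell and 0 rose (25% called, against 16.2% of all clusters in either direction and 7.52% as lower), with a median of -0.35. With an offset of 1 in place of 16, 0 of the 4 passed, and the share of all clusters that passed was 6.9%. Eef1e1, for a scaffold protein of the tRNA synthetase complex, read 1797 and 1948 in growth and 898 and 1016 in differentiation (-0.96 ± 0.18 SE; limma adjusted p = 0.0118). Dph2, of the enzyme that makes diphthamide on eEF2, fell by 0.91, Eef1d, of the exchange complex of the tRNA-carrying factor, by 0.79 and Eefsec, the selenocysteine factor, by 0.71 on the log2 scale. The translocation factor gene Eef2 changed by 0.24 (CI -0.17 to 0.65) and Eef1a2, the muscle and nerve isoform gene of the tRNA carrier, by -0.10 (CI -0.54 to 0.35).

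Of 25 genes of mTOR signalling (32 listed), 3 rose and 0 fell, with a median of 0.24. The 12% called was no larger than the 16.2% of all clusters called in either direction, 8.64% as higher. Sesn3, for a sestrin that restrains mTOR complex 1, read 177 and 194 in growth and 601 and 523 in differentiation (1.52 ± 0.18 SE; limma adjusted p = 0.00165). Sesn1, for another sestrin, rose by 1.15 ± 0.19 SE (adjusted p = 0.00691), and Rragd, for a Rag GTPase that recruits the complex to lysosomes, by 0.85 ± 0.18 SE (adjusted p = 0.0192). With an offset of 1, under which 6.9% of all clusters passed, Rragd did not (limma adjusted p = 0.0605). Mtor itself changed by 0.24 (CI -0.18 to 0.65). With 1 array left out, Sesn3 passed each time, and its change was 1.42 to 1.62. Sesn1 lost its call without differentiation replicate 2 and Pdcd4 without differentiation replicate 1. Each of the other genes named as risen or fallen in these 3 lists lost it without at least 2 of the 4 arrays. Fewer of all clusters passed in each of these fits than in the reported analysis.

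**Figure D4:**
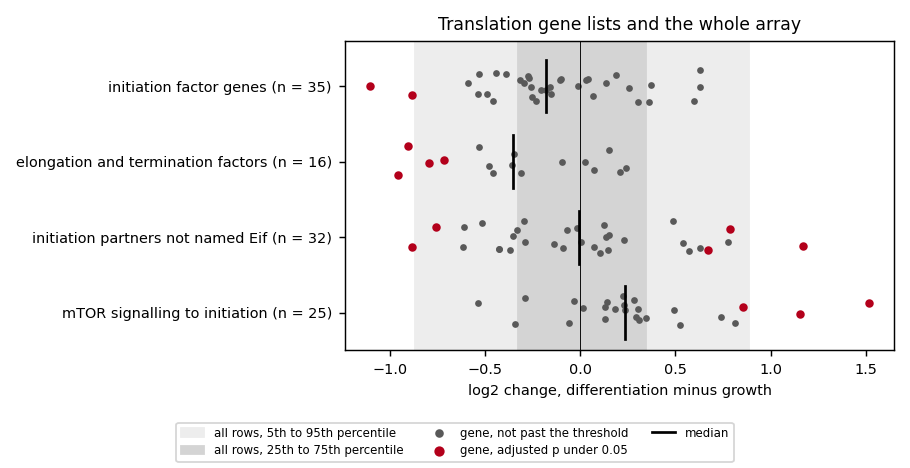
Each point is the log2 change of 1 gene, differentiation minus growth, for the initiation factor genes and 3 further lists, with red for adjusted p under 0.05, black bars for medians and grey bands for the spread of all 16658 clusters. The medians are -0.18, -0.35, -0.01 and 0.24 from top to bottom, and the middle 50% of all clusters lies between -0.32 and 0.34.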

How the data were processed

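The authors deposited a linear intensity for every transcript cluster on every array. The submitters' processing notes name PLIER, which summarises the probes of a cluster, and the mouse build mm9. How background was corrected and arrays were normalized is not given in the sources used here. Symbols came from the platform annotation, and all 35 members matched a RefSeq gene by Entrez identifier with the same symbol. The brightest cluster stood for a gene. Groups came from the titles. Values were transformed as log2(intensity + 16) and tested two-sided by lmFit and eBayes of limma 3.58.1 (R 4.3.3) without covariates, with Benjamini-Hochberg adjustment over 16658 clusters and a threshold of 0.05. No depth applies to arrays, and 2 arrays per group limit the precision. The procedure was tested on simulated data. Named were all called members, the largest change per role, set members such as Eif4e, and up to 6 called genes per further list. Members, roles and lists were chosen with earlier results of these data known. Alternatives are listed in the closing section. Nothing shows that same-numbered arrays share a culture: their deviations from the group means correlated at -0.04 over all clusters, so arrays were not paired. Whether replicates came from separate cultures is not described beyond the design text.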

Additional observations from a re-analysis of the deposited data

How the results depend on the processing

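The number of initiation factor genes that fell, 2 in the reported analysis, was 1 with an offset of 1, 5 without the 25% of clusters that were dimmest, 7 with a variance prior that follows intensity (a trend), 0 against a minimum change of 1.5-fold and 0 to 1 with an array left out. The number that rose, 0, was 1 under quantile normalization, median centring, the filter on dim clusters, the intensity trend and the mean over clusters of a gene, and 0 with any array left out. All clusters passed more often too under the filter (12.8% lower, 15.6% higher) and the trend (11.7% and 14.5%). In either direction, 6.9% of all clusters passed with an offset of 1 and 3.36% against 1.5-fold, compared with 16.2% in the reported analysis. Fits with an array left out have 1 array in a group, and fewer of all clusters passed in each of them than in the reported analysis. The 3 genes added as lower by the filter were Eif2s2, Eif3b and Eif4e3, and the 5 added by the trend were Eif1a, Eif2s2, Eif2b1, Eif3b and Eif4enif1. The gene that rose under the filter and the trend was Eif3f. Under quantile normalization, median centring and the mean over clusters it was Eif2s3y, whose signal could not be told from background. The median change of the 35 genes was -0.26 to -0.0598 with an array left out. Of partner genes, the number that rose (3) was 1 with an offset of 1, 5 with the filter, 7 with the trend, 0 against 1.5-fold and 0 to 3 with an array left out, and the number that fell (2) was 0 with an offset of 1, 8 with the trend, 0 against 1.5-fold and 0 with any array left out. Of elongation and termination genes, the number that fell (4) was 0 with an offset of 1 or against 1.5-fold and 0 to 2 with an array left out, and 1 rose with the trend. Of mTOR genes, the number that rose (3) was 5 with the filter, without clusters listed at 0 and with the mean over clusters, 7 with the trend, 1 against 1.5-fold and 1 to 4 with an array left out, and 2 fell with the trend. Changes near 0 turned sign with an array left out: Eif5b (-0.54 to 0.0770), Eif5 (-0.26 to 0.0477), Eif2d (-0.22 to 0.49), Eif2b4 (-0.35 to 0.41), Eif3a (-0.74 to 0.15), Eif3i (-0.27 to 0.25), Eif4e (-0.61 to 0.0908), Eif4g2 (-0.16 to 0.25), Eif4ebp2 (-0.41 to 0.0558), Eif4a3 (-0.42 to 0.00944) and Eef1a2 (-0.25 to 0.0591). None of these was called under any alternative. With the replicate number as a block, 2564 clusters passed against 2691, 2 initiation factor genes fell and 0 rose, and Mknk2 lost its call (limma adjusted p = 0.0555). With a robust prior the numbers of initiation factor genes were also 2 and 0. The causes of these shifts were not tested.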
